A study of Mus musculus with 4 samples.

Results

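Interferon-stimulated genes are the genes that cells switch on when an interferon binds its receptor, and 32 of them were followed here through 4 trigeminal ganglion libraries. They were picked by name from the 56035 gene rows of the deposited expression table, and they had been chosen because their level was higher in K823R ganglia, most of all in 1 K823R library. The K823R and WT levels of these 32 genes are therefore a description and are given without a test. All 32 names had a row. Of these, 28 averaged 1 TPM or more in the 4 libraries, the filter used for tests across genes, and 4 (Trim30a, Ifi44, Mx1 and Oas3) did not.

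The trigeminal ganglion holds the cell bodies of the sensory neurons of the face, with their satellite glia and Schwann cells. Ganglia of 2 groups of male C57BL/6 mice aged 8 weeks were sequenced as paired-end libraries of messenger RNA. The K823R group (2 libraries) carried a knock-in allele of Trpv1, the gene of the heat- and capsaicin-gated channel of pain-sensing neurons, in which 1 lysine codon is replaced by an arginine codon; the labels call these mice transgenic. The WT group (2 libraries) came from littermates with unaltered Trpv1. The labels do not say whether the K823R mice carried 1 or 2 copies of the allele, and they name no infection, injury or drug in either group. The protocol speaks of 2 pairs of ganglia without saying how they were divided over the libraries, so the p-values below rest on the variation among these 4 libraries alone, and it may be technical. In such whole-tissue RNA, fewer cells of a type and less RNA per cell cannot be told apart.

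Type I interferons signal through the receptor made of Ifnar1 and Ifnar2 and the Janus kinases to a complex that includes Stat2 and Irf9 and binds the interferon-stimulated response element (ISRE) near the start of its target genes. Interferon gamma signals through its own receptor to the gamma activated site (GAS), and the guanylate-binding proteins and immunity-related GTPases are among its strongest targets in mouse cells. The products include sensors of foreign RNA and DNA, enzymes that degrade or block viral RNA, and proteins that trap virus particles. Many of these transcripts are present at a low level in uninfected tissue, and the trigeminal ganglion is known as a site where herpes simplex virus persists under the control of this response.

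Levels are in TPM, transcript abundances scaled for transcript length and to 1 total per library, so levels may be compared between genes but read depth is unknown and no counting interval can be given. The libraries listed 21838 and 21941 genes above 0 in K823R ganglia and 21844 and 22119 in WT ganglia. Neuronal markers were abundant in all 4 libraries, with Uchl1 at 4495 and 4309 TPM in K823R ganglia and 4698 and 4146 TPM in WT ganglia. Trpv1 had 40.9 and 35.0 TPM in K823R ganglia and 39.2 and 30.6 TPM in WT ganglia (log2 difference 0.12, limma adjusted p = 0.938), and a gene-level TPM cannot show the codon that was replaced. Across the 15390 genes tested with limma, 1 differed between K823R and WT after Benjamini-Hochberg adjustment at a threshold of 0.05, which is 0.0065% of the genes, and 732 (4.76%) had an unadjusted p under 0.05.

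The K823R replicate 2 library stood apart from the other 3 for these genes. It held the highest level of 27 of the 32, whereas it was the highest library for 19.3% of all genes tested. The exceptions were Rsad2 and Oas3, highest in K823R replicate 1 (beside 33.1% of all genes), Irf7, highest in WT replicate 1 (27.5%), and Ifit2 and Oas2, highest in WT replicate 2 (20.1%). K823R replicate 2 was the lowest library for 0 of the 32, beside 24.4% of all genes. The level in K823R replicate 2 was at least 1.5 times that of every other library for 13 of the 32 genes, a pattern that 1.72% of all genes tested showed, and at least 2 times for 4 (Gbp2, Gbp3, Usp18 and Zbp1), against 0.734% of all genes. These shares of all genes are the background against which the counts stand, and since the genes were chosen for this pattern nothing is read from the excess.

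The K823R replicate 1 library was close to the WT pair. The ratio to the WT mean had a median over the 32 genes of 1.09 in K823R replicate 1 and 1.72 in K823R replicate 2, beside 1.03 and 0.998 over all genes tested. Within the K823R pair, replicate 2 exceeded replicate 1 for 29 genes, with a median ratio of 1.37 beside 0.967 over all genes. K823R replicate 1 was above both WT libraries for 14 of the 32 genes, near the 41.1% of all genes for which this was so, while K823R replicate 2 was above both for 29 of the 32, beside 30.4% of all genes. In the WT pair, replicate 2 was below replicate 1 for 21 of the 32 genes. The median ratio of WT replicate 2 to WT replicate 1 was 0.906 over the 32, beside 0.963 over all genes tested. WT replicate 2 was the lowest library for 19 of the 32, beside 35.7% of all genes. WT replicate 1 was lowest for 10 (22.2% of all genes) and K823R replicate 1 for 3 (17.7%).

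Taken as groups, 30 of the 32 genes had a higher mean log2(TPM + 1) in K823R than in WT ganglia, beside 57.4% of all genes tested, and the median difference was 0.30 on that scale, beside 0.026 over all genes. For 14 of the 32 genes each K823R library exceeded each WT library, beside 19.4% of all genes. No member had both K823R libraries below both WT libraries, beside 14.6% of all genes. The other 18 members overlapped between the groups. When K823R replicate 2 was left out, the median difference was 0.081, beside 0.046 over all genes. In that run 23 of the 32 genes were higher in K823R, beside 60.2% of all genes. When K823R replicate 1 was left out instead, the members' values were 0.50 and 31, beside 0.0024 and 50.6% over all genes.

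**Figure D1:**
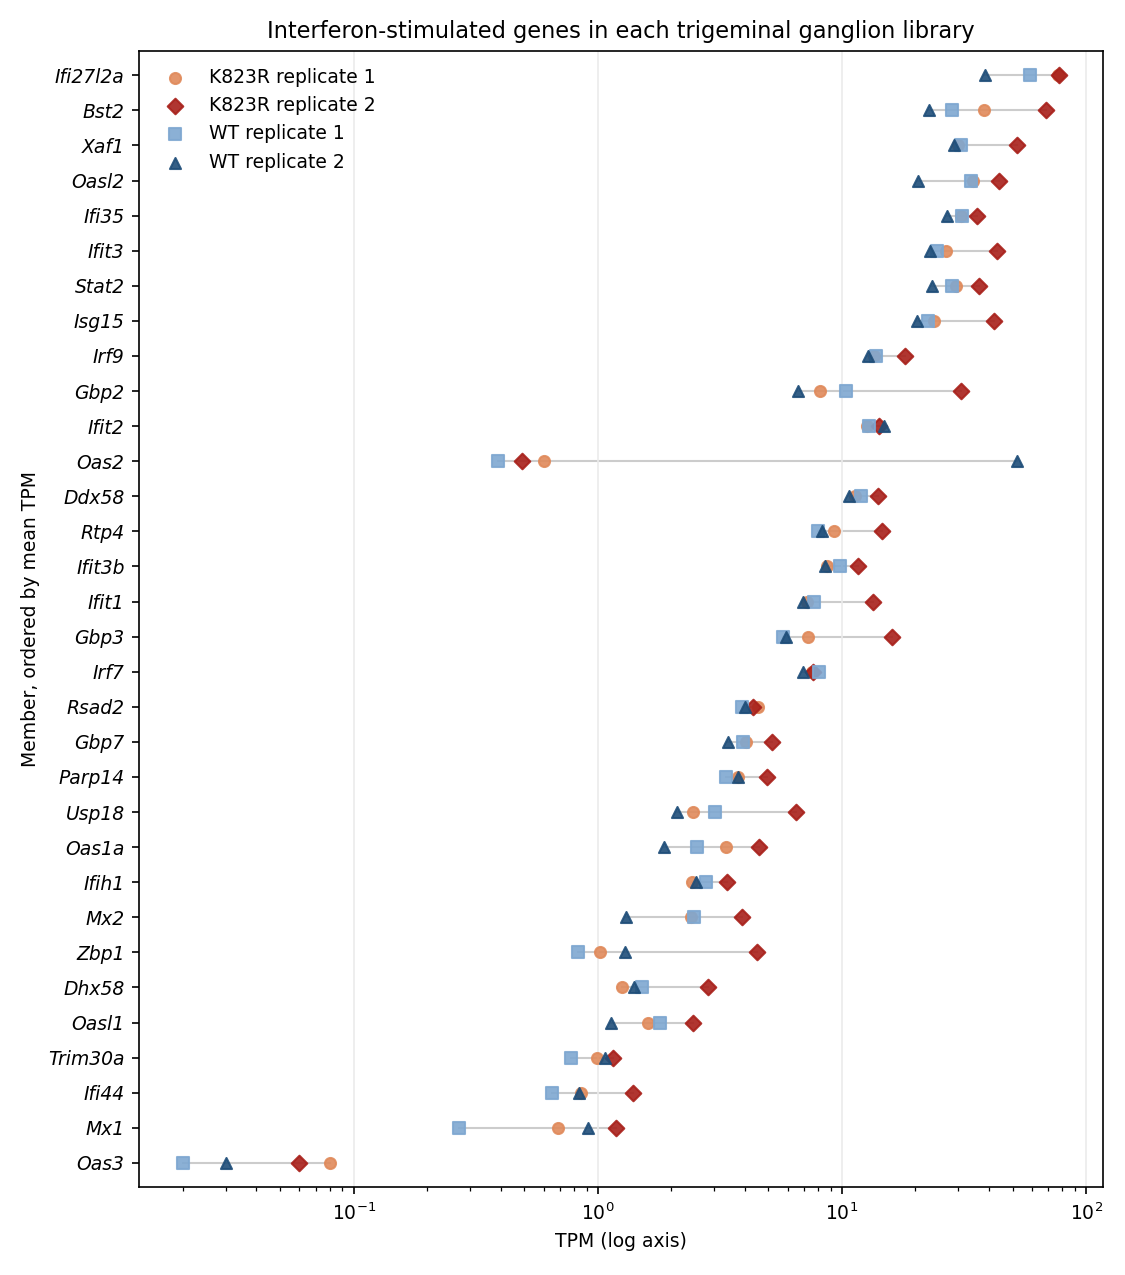
Level of each of the 32 interferon-stimulated genes in TPM (log axis) in each library, with genes ordered by mean level and a grey line from the lowest to the highest library. K823R replicate 2 (dark red diamonds) is the right-most point for 27 of the 32 genes, and WT replicate 2 (dark blue triangle) lies far to the right for Oas2.

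The promoters of these genes were searched for the response elements of the pathway. The search did not use the levels, but the genes were picked by name as interferon-stimulated. A high share with these elements is therefore partly built into the choice. RefSeq start sites on GRCm38.p6, in a table of windows from 250 bases before to 50 bases after each start, matched 23 of the 32 genes. The ISRE core was searched as GAAANNGAAA on either strand, so that it reads TTTCNNTTTC on the other strand, and overlapping matches were counted separately. It was present in 15 of the 23 genes (65.2%), against 1079 of the 27025 genes in the table (3.99%). The GAS core TTCNNNGAA, which reads the same on both strands, was present in 5 of the 23 (Bst2, Gbp7, Ifi35, Ifit2 and Oas1a, 21.7%), against 9.55% of all genes. Isg15 held 3 overlapping ISRE cores, the most of any member, and Bst2, Gbp3, Ifit1, Ifit3, Ifit3b and Oas1a held 2 each. No ISRE core was found in this window for Ifi35, Ifi44, Ifit2, Irf7, Irf9, Oasl1, Oasl2 and Xaf1. A match is a description of letters and not evidence of binding.

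The stretches that follow show these cores, in capitals, with up to 25 bases on each side, 5′ to 3′ on the strand of the gene. They are shown for the members with a core whose level in K823R replicate 2 stood furthest above the other libraries (Gbp2, Gbp3, Bst2, Isg15, Ifit1, Ifit3), for the near-copy Ifit3b, and for Rsad2, which holds a core and was not highest in that library. The regions on GRCm38.p6 are chr4:156200850-156200921 (minus strand) for Isg15, chr19:34640760-34640838 (plus) for Ifit1, chr19:34583348-34583441 (plus) for Ifit3, chr19:34607744-34607837 (plus) for Ifit3b, chr8:71537562-71537627 (minus) for Bst2, chr3:142620579-142620638 (plus) for Gbp2, chr3:142559974-142560039 (plus) for Gbp3 and chr12:26456538-26456597 (minus) for Rsad2.
Isg15: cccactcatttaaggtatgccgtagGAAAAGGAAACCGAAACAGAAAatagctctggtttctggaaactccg
Ifit1: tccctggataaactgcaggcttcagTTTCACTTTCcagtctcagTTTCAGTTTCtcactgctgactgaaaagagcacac
Ifit3: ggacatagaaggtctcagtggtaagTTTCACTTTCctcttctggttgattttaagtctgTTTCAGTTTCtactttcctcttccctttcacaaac
Ifit3b: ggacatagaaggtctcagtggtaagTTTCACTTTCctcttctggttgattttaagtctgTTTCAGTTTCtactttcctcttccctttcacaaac
Bst2: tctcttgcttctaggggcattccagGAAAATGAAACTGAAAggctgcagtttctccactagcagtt
Gbp2: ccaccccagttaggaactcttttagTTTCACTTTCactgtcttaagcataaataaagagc
Gbp3: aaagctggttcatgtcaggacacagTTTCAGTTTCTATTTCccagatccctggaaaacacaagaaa
Rsad2: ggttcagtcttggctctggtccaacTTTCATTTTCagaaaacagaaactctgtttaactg
The cores of Isg15 run into one another, starting 78, 72 and 66 bases before the RefSeq start. In Bst2 and Gbp3 a pair of overlapping cores starts 130 and 124, and 45 and 39, bases before it. Ifit1 has separate cores 104 and 85 bases before its start. Gbp2 has 1 core, 59 bases before the start, and Rsad2 has 1, 120 bases before it. The Ifit3 and Ifit3b stretches are letter for letter the same over 94 bases, although the genes lie at different starts on chromosome 19, and their windows share an identical run of 169 bases.

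**Figure D2:**
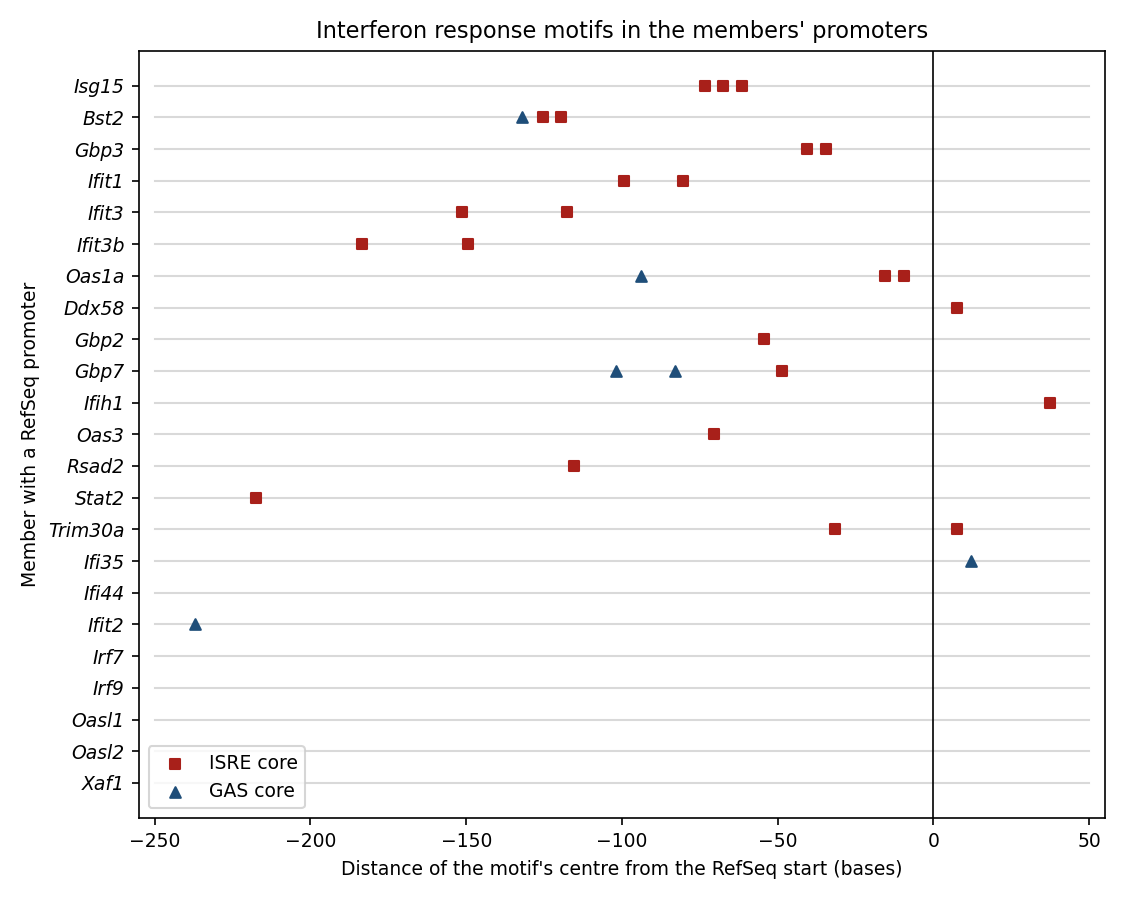
Distance in bases of each ISRE core (red squares) and GAS core (blue triangles) from the RefSeq start (vertical line) in the 23 members with a promoter, grey lines marking the window searched. The 15 members with an ISRE core stand at the top, Isg15 first with 3 overlapping cores.

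Stat2, Irf9 and Irf7 are the transcription factors among the members. Stat2, a transcription factor of the type I complex (chr10:128270559-128292849, plus strand), had 29.4 and 36.4 TPM in K823R ganglia and 28.2 and 23.4 TPM in WT ganglia. Its partner Irf9, which gives the complex its DNA contact, had 13.5 and 18.0 TPM in K823R ganglia and 13.8 and 12.7 TPM in WT ganglia. Both genes were highest in K823R replicate 2, but only for Stat2 did the groups not overlap. Irf7, the factor that amplifies type I interferon production, was nearly level, with 7.52 and 7.62 TPM in K823R ganglia and 8.05 and 6.90 TPM in WT ganglia (log2 difference 0.019).

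Ddx58 (RIG-I), Ifih1 (MDA5) and Dhx58 (LGP2) are the cytoplasmic RNA helicases that detect viral double-stranded RNA, and Dhx58 modulates the other two. Ddx58 had 11.4 and 14.0 TPM in K823R ganglia and 12.0 and 10.7 TPM in WT ganglia. Ifih1 had 2.44 and 3.37 TPM in K823R ganglia and 2.78 and 2.53 TPM in WT ganglia. Dhx58 had 1.26 and 2.82 TPM in K823R ganglia and 1.51 and 1.41 TPM in WT ganglia. In all 3, K823R replicate 2 was the highest library and K823R replicate 1 lay within or below the WT pair, so that the groups overlapped. Zbp1, a sensor of left-handed (Z-form) nucleic acids that can start necroptosis, showed the widest gap of any member as a ratio: 1.02 and 4.48 TPM in K823R ganglia and 0.83 and 1.29 TPM in WT ganglia, with K823R replicate 2 at 3.47 times the next library.

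Isg15 is a ubiquitin-like protein that is attached to other proteins, and Usp18 is the protease that removes it and also blunts signalling at the type I receptor. Isg15 (chr4:156199424-156200818, minus strand), whose promoter carries the overlapping cores above, had 23.9 and 42.1 TPM in K823R ganglia and 22.5 and 20.2 TPM in WT ganglia. These are 33.0 ± 12.9 TPM in K823R and 21.4 ± 1.63 TPM in WT ganglia (SD, n = 2 each), and the wide K823R spread is the difference between its libraries. Usp18 had 2.46 and 6.47 TPM in K823R ganglia and 3.02 and 2.11 TPM in WT ganglia. For Usp18, K823R replicate 1 lay between the WT libraries, while K823R replicate 2 was 2.52 times the WT mean.

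The IFIT proteins bind viral RNA ends or act as scaffolds, and their genes lie side by side on chromosome 19. Ifit3 had 26.7 and 43.3 TPM in K823R ganglia and 24.6 and 22.8 TPM in WT ganglia, with no overlap between the groups. Ifit1, which recognises RNA lacking a cap methyl group, had 7.19 and 13.4 TPM in K823R ganglia and 7.70 and 6.94 TPM in WT ganglia, so only K823R replicate 2 stood out. Ifit2 gave another order than its neighbours, with WT replicate 2 highest: 12.7 and 14.2 TPM in K823R ganglia and 12.9 and 14.9 TPM in WT ganglia (log2 difference -0.041). It is also the only one of these 4 genes whose promoter window held no ISRE core. A link between the core and the order of the libraries was not tested. Of the other members without a core in the window, Ifi35, Ifi44, Irf9, Oasl1, Oasl2 and Xaf1 were highest in K823R replicate 2, and Irf7 was not. Ifit3b had 8.65 and 11.7 TPM in K823R ganglia and 9.80 and 8.51 TPM in WT ganglia. Its transcript matches 97% of that of Ifit3 at 97.8% identity, so the reads of this pair may be divided uncertainly; their sum was 35.3 and 54.9 TPM in K823R ganglia and 34.4 and 31.4 TPM in WT ganglia, again highest in K823R replicate 2.

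The 5 oligoadenylate synthetase genes, all on chromosome 5, differed among themselves. Their classical products make short oligoadenylates that activate the RNA-degrading enzyme RNase L, whereas the mouse Oasl1 protein holds back translation of Irf7. Oasl2, the most abundant, had 34.6 and 43.9 TPM in K823R ganglia and 33.8 and 20.6 TPM in WT ganglia, with WT replicate 2 low and K823R replicate 2 high. Oas1a had 3.35 and 4.56 TPM in K823R ganglia and 2.55 and 1.86 TPM in WT ganglia. Oasl1 had 1.61 and 2.45 TPM in K823R ganglia and 1.79 and 1.13 TPM in WT ganglia. The groups did not overlap for Oasl2 and Oas1a and overlapped for Oasl1. Oas1a has a near-identical copy, Oas1g (97.6% identity over 99% of the transcript), and the sum of the pair was 3.67 and 5.12 TPM in K823R ganglia and 3.97 and 2.28 TPM in WT ganglia, so that the groups overlapped once the copies were added. Oas3 was listed at 0.08 and 0.06 TPM in K823R ganglia and 0.02 and 0.03 TPM in WT ganglia, too low for a ratio to carry weight.

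Oas2 stood alone. It had 0.60 and 0.49 TPM in K823R ganglia and 0.39 and 51.9 TPM in WT ganglia, so 1 WT library held nearly all of it. Its neighbour Oas3 (chr5:120753098-120777661, minus strand; Oas2 is at chr5:120730333-120749853 on the same strand) was at most 0.08 TPM in any library. This 1 value set the log2 difference of Oas2 to -2.47, and it moves sums over the members: they totalled 405, 587, 374 and 363 TPM in K823R replicate 1, K823R replicate 2, WT replicate 1 and WT replicate 2, and 405, 586, 374 and 311 TPM in the same libraries without Oas2. WT replicate 2 alone carried the mean of Oas2 past the filter of 1 TPM and the alternative filter of 5 TPM. No other member was above 2 TPM in 1 library and under 1 TPM in the other 3. In the whole table, 26 gene rows, 5 of them protein-coding, had between 40 and 80 TPM in 1 library and at most 1 TPM in the other 3.

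All 5 dynamin-like GTPases were highest in K823R replicate 2. The guanylate-binding proteins coat and break the vacuoles of intracellular pathogens, and 3 of their genes lie together on chromosome 3. Gbp2 (chr3:142620602-142638008, plus strand) had 8.09 and 30.8 TPM in K823R ganglia and 10.4 and 6.60 TPM in WT ganglia, which is 19.5 ± 16.1 TPM in K823R and 8.51 ± 2.70 TPM in WT ganglia (SD, n = 2 each). Gbp3 had 7.27 and 16.03 TPM in K823R ganglia and 5.73 and 5.90 TPM in WT ganglia. For Gbp2 the K823R replicate 1 value lay between the WT libraries, whereas for Gbp3 it lay above both. Gbp7, their neighbour, differed less, with 4.05 and 5.16 TPM in K823R ganglia and 3.95 and 3.41 TPM in WT ganglia. By the gap of K823R replicate 2 above the next library on log2(TPM + 1), Gbp2 ranked 69, Zbp1 82 and Gbp3 99 among the 15390 genes tested.

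Mx1 and Mx2 encode the GTPases known for blocking influenza and related viruses. C57BL/6 mice carry a defective Mx1 allele, and the annotation lists Mx2 as a polymorphic pseudogene. Mx1 had 0.69 and 1.19 TPM in K823R ganglia and 0.27 and 0.91 TPM in WT ganglia, and Mx2 had 2.40 and 3.89 TPM in K823R ganglia and 2.48 and 1.30 TPM in WT ganglia. Both were highest in K823R replicate 2 and both overlapped between the groups.

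Of the 9 remaining effectors, Bst2 (tetherin, which holds budding virus particles at the cell surface) had 38.1 and 68.6 TPM in K823R ganglia and 28.1 and 22.8 TPM in WT ganglia. Its log2 difference of 0.99 was the greatest among the members. Ifi27l2a, a small membrane protein and the most abundant member, had 76.6 and 77.7 TPM in K823R ganglia and 58.9 and 38.5 TPM in WT ganglia. Here the K823R libraries were nearly equal (77.2 ± 0.76 TPM) and the WT libraries were apart (48.7 ± 14.5 TPM, SD, n = 2 each). Xaf1, which promotes apoptosis, had 29.8 and 52.2 TPM in K823R ganglia and 30.6 and 28.9 TPM in WT ganglia, so K823R replicate 1 lay between the WT libraries.

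Rtp4, a chaperone that helps receptors reach the cell surface, had 9.30 and 14.5 TPM in K823R ganglia and 7.98 and 8.26 TPM in WT ganglia. Ifi35, a partner of the signalling protein Nmi, had 30.7 and 35.6 TPM in K823R ganglia and 30.9 and 26.9 TPM in WT ganglia. Parp14, an ADP-ribosyltransferase, had 3.76 and 4.94 TPM in K823R ganglia and 3.36 and 3.74 TPM in WT ganglia. The groups overlapped for Ifi35 and were apart for Rtp4 and Parp14. Rsad2 (viperin, which makes a chain-terminating nucleotide) had 4.55 and 4.31 TPM in K823R ganglia and 3.89 and 4.02 TPM in WT ganglia: a small difference, shared by both K823R libraries. Ifi44 had 0.85 and 1.40 TPM in K823R ganglia and 0.65 and 0.84 TPM in WT ganglia. Trim30a, a member of the TRIM family of ubiquitin ligases, had 0.99 and 1.15 TPM in K823R ganglia and 0.78 and 1.07 TPM in WT ganglia. Both were low, and the groups overlapped for Trim30a alone of this pair.

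Genes of the pathway that are not among the 32 were taken from written lists. None of the 119 genes of these lists that could be tested passed limma at an adjusted p of 0.05, and 9 of them had an unadjusted p under 0.05, beside 4.76% of all genes; the smallest adjusted p in each list was 0.918. The levels are therefore descriptions, and the list of GTPases had the widest median difference of the lists. All 11 tested interferon-induced GTPases outside the members were highest in K823R replicate 2, beside 19.3% of all genes, and 9 of the 11 were at least 1.5 times every other library there. These immunity-related GTPases and guanylate-binding proteins act on pathogen vacuoles as Gbp2 and Gbp3 do. Ifi47 had 2.84 and 9.91 TPM in K823R ganglia and 2.84 and 2.24 TPM in WT ganglia (log2 difference 0.88, SE 0.52). Irgm2 had 7.09 and 14.6 TPM in K823R ganglia and 6.60 and 4.97 TPM in WT ganglia (0.74, SE 0.35). Gbp5 had 2.61 and 4.51 TPM in K823R ganglia and 1.94 and 2.28 TPM in WT ganglia (0.52, SE 0.27).

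Over the 11 genes the median ratio to the WT mean was 1.05 in K823R replicate 1 and 2.52 in K823R replicate 2, and the median log2 difference of 0.58 became 0.071 when K823R replicate 2 was left out and 1.18 when K823R replicate 1 was. The GTPases that are members and the tested ones outside were all highest in K823R replicate 2. The members were chosen for that pattern and the outside list was written with earlier results known, so nothing is read from the agreement. Promoters were taken from all 18 GTPases of the written list, tested or not, and 8 matched the RefSeq table. Of these 8, 7 held an ISRE core (87.5%) and 5 a GAS core (62.5%), against the 65.2% and 21.7% given above for the members.

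**Figure D3:**
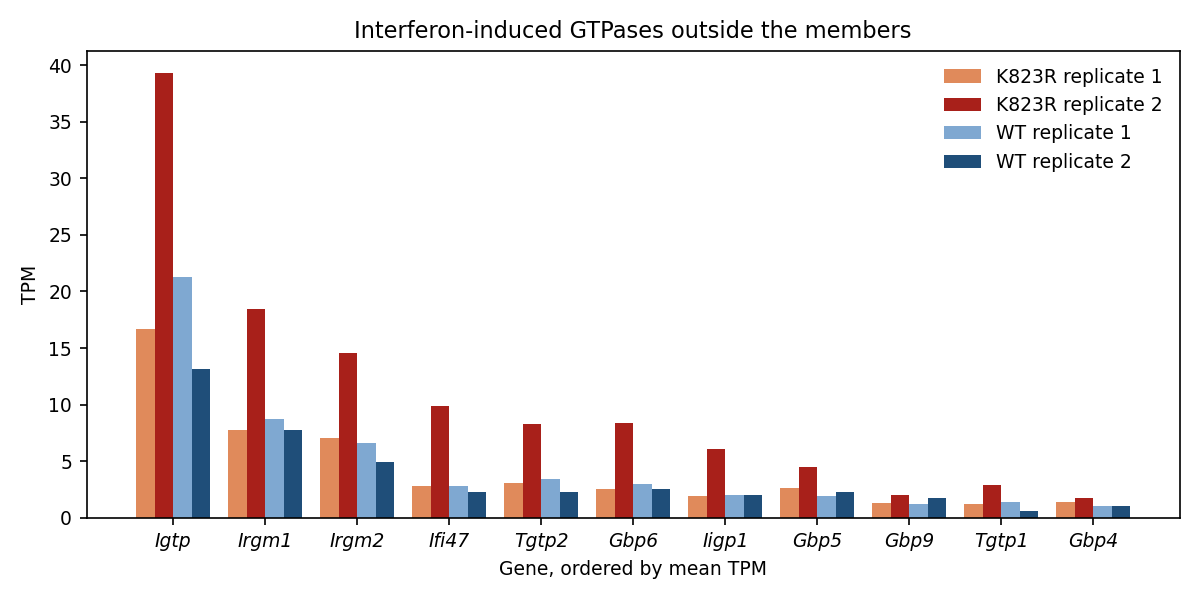
Level in TPM of the 11 tested interferon-induced GTPases outside the members, with a bar from 0 for each library. The K823R replicate 2 bar (dark red) is the tallest for all 11 genes, and the K823R replicate 1 bar is close to the WT bars.

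Among the 62 other tested interferon-stimulated genes, K823R replicate 2 was the highest library for 28 (45.2%, beside 19.3% of all genes), 4 of them by at least 1.5 times, and their median log2 difference was 0.14. The genes with the smallest p were Ly6e, Ifi30 and Parp12. Ly6e, a membrane protein that limits viral entry, had 98.9 and 99.6 TPM in K823R ganglia and 83.3 and 78.7 TPM in WT ganglia (log2 difference 0.29, SE 0.07). Ifi30, a lysosomal thiol reductase, had 12.2 and 11.8 TPM in K823R ganglia and 9.44 and 8.51 TPM in WT ganglia (0.39, SE 0.11). Parp12 had 10.4 and 9.86 TPM in K823R ganglia and 8.01 and 7.46 TPM in WT ganglia (0.35, SE 0.11). In these 3 both K823R libraries were alike and above both WT libraries, and none passed the test.

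Cxcl10 and Cxcl9, chemokines that draw T cells through the same receptor, were singled out after their values were seen. Cxcl10 had 4.45 and 10.2 TPM in K823R ganglia and 4.94 and 4.60 TPM in WT ganglia. For Cxcl10, K823R replicate 2 was at least 2 times every other library, and K823R replicate 1 was the lowest of the 4. Cxcl9 was highest in WT replicate 1, with 0.46 and 2.04 TPM in K823R ganglia and 2.10 and 0.18 TPM in WT ganglia.

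Upstream of the members, interferon transcripts were hardly listed. Of the 20 ligand genes, 19 were listed at 0 in every library, and Ifng, the gene of interferon gamma, was at 0.08 TPM in K823R replicate 2 and listed at 0 in the other 3. The chains of the type I receptor overlapped between the groups: Ifnar1 had 29.4 and 27.4 TPM in K823R ganglia and 26.1 and 29.2 TPM in WT ganglia, and Ifnar2 had 27.0 and 25.7 TPM in K823R ganglia and 26.6 and 29.0 TPM in WT ganglia. Neither was highest in K823R replicate 2. Of the 23 tested receptor and signalling genes, 8 were highest in K823R replicate 2 (34.8%, beside 19.3% of all genes) and none by 1.5 times. Those with the smallest p were Stat3, with 127 and 124 TPM in K823R ganglia and 118 and 96.9 TPM in WT ganglia, Socs3, a feedback inhibitor of the Janus kinases, with 11.1 and 10.4 TPM in K823R ganglia and 9.72 and 6.85 TPM in WT ganglia, and Ifngr1, a chain of the interferon gamma receptor, with 24.3 and 22.6 TPM in K823R ganglia and 21.4 and 20.5 TPM in WT ganglia. Its partner chain Ifngr2, named after its values were seen, was highest in K823R replicate 2, with 54.5 and 62.2 TPM in K823R ganglia and 39.4 and 58.0 TPM in WT ganglia.

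Of the 23 tested genes of nucleic acid sensing outside the members, 9 were highest in K823R replicate 2 (39.1%, beside 19.3% of all genes) and none by 1.5 times. Samhd1, which depletes the nucleotides that viral DNA synthesis needs, had 24.0 and 24.2 TPM in K823R ganglia and 19.6 and 17.3 TPM in WT ganglia. Rnaset2b had 24.2 and 15.0 TPM in K823R ganglia and 10.9 and 12.1 TPM in WT ganglia. Rnaset2a of the same list, named after its values were seen, was highest in WT replicate 2. It had 13.9 and 14.8 TPM in K823R ganglia and 12.7 and 16.7 TPM in WT ganglia. Copies were searched for the members only, so reads shared by this pair were not examined. Rnaseh2a, a subunit of the enzyme that cuts RNA paired to DNA, had 47.3 and 51.5 TPM in K823R ganglia and 36.1 and 48.0 TPM in WT ganglia. The ISRE core was found in 2 of 27 sensing genes with a RefSeq promoter (7.41%), in 2 of 21 receptor and signalling genes (9.52%) and in 32 of 75 other interferon-stimulated genes (42.7%). These shares are over all listed genes with a RefSeq promoter, tested or not.

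**Figure D4:**
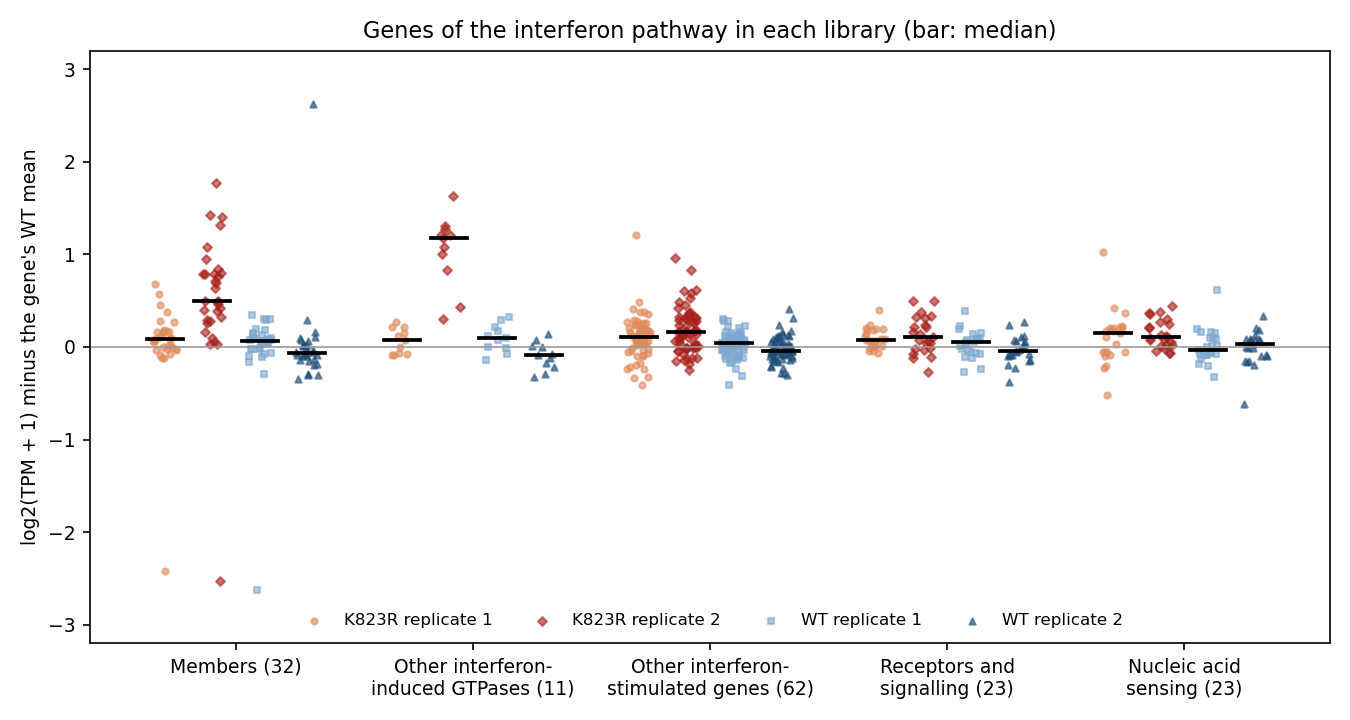
Level of each gene as log2(TPM + 1) minus its mean over the WT libraries, for the 32 members and the tested genes of 4 pathway lists, by library, with black bars at the medians. The members' median is 0.081 in K823R replicate 1 and 0.50 in K823R replicate 2, and all 11 other GTPases lie highest in K823R replicate 2; the points beyond 2 in either direction are Oas2.

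Annotation terms in the deposited table place 22 of the 32 members in defense response to virus (68.8%, beside 0.832% of genes tested) and 20 in innate immune response (62.5%, beside 1.57%). Since the genes were picked by name as interferon-stimulated, these shares are partly built into the choice. The term cellular response to interferon-beta holds 5 members and that for interferon-gamma 3. Of the other tested genes in these terms, 30 of 109 for defense response to virus (27.5%), 69 of 225 for innate immune response (30.7%), 16 of 26 for interferon-beta (61.5%) and 36 of 102 for interferon-gamma (35.3%) were highest in K823R replicate 2, beside 19.3% of all genes.

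Markers of immune cells were compared library by library, since such cells carry many of these transcripts. Summed macrophage markers were 153 and 197 TPM in K823R ganglia and 103 and 156 TPM in WT ganglia. By gene, 9 of the 11 markers were highest in K823R replicate 2, beside 19.3% of all genes. The exceptions, Adgre1 and Cd163, were highest in WT replicate 2. Adgre1 had 1.31 and 2.11 TPM in K823R ganglia and 1.85 and 3.43 TPM in WT ganglia. Cd163 had 1.37 and 1.65 TPM in K823R ganglia and 1.30 and 2.33 TPM in WT ganglia. The macrophage sum in K823R replicate 2 was 1.52 times the WT mean, and the most abundant marker, Lyz2, had 60.8 and 75.3 TPM in K823R ganglia and 45.8 and 64.7 TPM in WT ganglia. The sum was lowest in WT replicate 1, whereas the members without Oas2 were lowest in WT replicate 2, so that summed macrophage markers and members share their highest library but not the order of the others. Summed monocyte markers, at 2.78 and 4.89 TPM in K823R ganglia and 2.89 and 3.0 TPM in WT ganglia, were also highest in K823R replicate 2. By gene, 3 of the 6 were highest in that library, beside 19.3% of all genes, and none of the 6 averaged 1 TPM. Ly6c2 and Chil3 were highest in WT replicate 1, and Cd300e in WT replicate 2. The part of macrophages and monocytes in the level of the members was not tested.

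The other immune lists had mixed orders. Summed T cell markers were 5.31 and 4.30 TPM in K823R ganglia and 4.64 and 6.04 TPM in WT ganglia, lowest in K823R replicate 2. Summed NK cell markers were at most 1.25 TPM in any library, with Gzma and Klre1 listed at 0 in all 4. B cell markers summed to 26.7 and 22.4 TPM in K823R ganglia and 26.3 and 23.1 TPM in WT ganglia, and dendritic cell markers to 19.1 and 17.7 TPM in K823R ganglia and 17.4 and 16.5 TPM in WT ganglia. Neutrophil markers were 2.65 and 6.27 TPM in K823R ganglia and 6.24 and 2.40 TPM in WT ganglia, so that 1 library of each group was high. Plasmacytoid dendritic cell markers without Bst2, which is also a member, were 124 and 113 TPM in K823R ganglia and 109 and 104 TPM in WT ganglia, but Pacsin1, which neurons also express, made up most of this sum. Siglech, a more specific marker of that cell type, was low but highest in K823R replicate 2. It had 0.44 and 1.14 TPM in K823R ganglia and 0.12 and 0.48 TPM in WT ganglia. The rest of this list without Bst2 did not share that library. Pacsin1 and Ccr9 (at most 0.16 TPM) were highest in K823R replicate 1, and Klk1 was listed at 0 throughout. Tcf4 was highest in WT replicate 2, with 9.96 and 7.67 TPM in K823R ganglia and 7.16 and 10.91 TPM in WT ganglia. The part of these cells in the level of the members was not tested.

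Among tissue markers, neuronal sums were 16080 and 15510 TPM in K823R ganglia and 16634 and 14389 TPM in WT ganglia, and satellite glia sums 11017 and 12272 TPM in K823R ganglia and 11081 and 11000 TPM in WT ganglia. Schwann cell markers, like those of satellite glia, had their highest sum in K823R replicate 2. The Schwann cell sums were 14233 and 16958 TPM in K823R ganglia and 11505 and 14306 TPM in WT ganglia. By gene, 5 of the 8 Schwann cell and 3 of the 6 satellite glia markers were highest in that library, beside 19.3% of all genes. Apoe made up most of the satellite glia sum, with 11138.7 TPM in K823R replicate 2. Fabp7 and Slc1a3 were highest in WT replicate 2 and Glul in WT replicate 1. Markers of central glia were 252 and 305 TPM in K823R ganglia and 12.0 and 211 TPM in WT ganglia. Those of fibroblasts and meninges were 2917 and 914 TPM in K823R ganglia and 346 and 1084 TPM in WT ganglia. WT replicate 1 was lowest in both, and K823R replicate 2 was highest for central glia alone. Ptgds made up 2374 TPM of the fibroblast and meninges sum in K823R replicate 1. Endothelial markers were 206 and 202 TPM in K823R ganglia and 201 and 181 TPM in WT ganglia. Pericyte and smooth muscle markers were 118 and 109 TPM in K823R ganglia and 96.8 and 109.75 TPM in WT ganglia. Both sums were highest in K823R replicate 1. Erythroid markers were 319 and 334 TPM in K823R ganglia and 492 and 245 TPM in WT ganglia. The part of these differences in the level of the members was not tested.

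**Figure D5:**
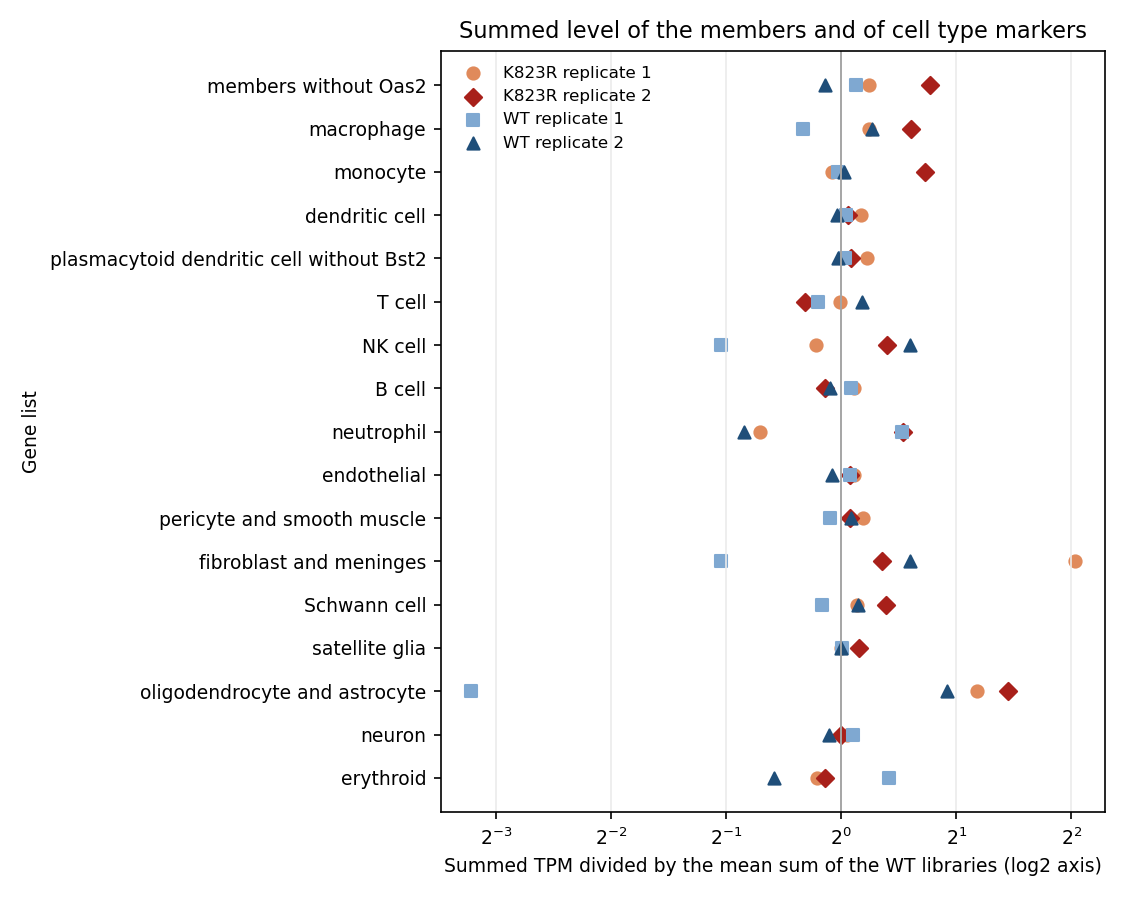
Summed TPM of the members without Oas2 and of each cell type's markers, divided by the mean sum of the WT libraries (log2 axis), by library. K823R replicate 2 (dark red diamonds) is highest for the members and for macrophage, monocyte, Schwann cell, satellite glia and central glia markers. It is also highest for neutrophil markers, where WT replicate 1 is nearly level. Fibroblast, T cell and erythroid sums peak in other libraries.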

How the data were processed

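Messenger RNA of mouse trigeminal ganglia was sequenced with paired reads according to the protocols in the labels. Per the submitters' processing notes, reads were processed with tools among which are edgeR, RSEM, HISAT2 and fastp 0.19.5, on the build GRCm38.p6; which annotation, filters and strand setting were used is not given in the sources used here. In the deposited table the authors give TPM for each of the 4 libraries; their 2 group-mean columns were not used. TPM keeps no read depth, so a count test, a counting interval and a detection floor were not possible, and an abundant transcript lowers the others in its library. If RSEM made the values, reads shared by near-identical copies were divided by estimation.

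Groups came from sample titles. Genes averaging 1 TPM or more (15390) were tested with limma 3.58.1 in R 4.3.3 on log2(TPM + 1), K823R minus WT, two-sided, with a variance trend and Benjamini-Hochberg adjustment; this scale understates differences of low genes. The test was checked on simulated data. The members, the pathway and marker lists and the tests were chosen with earlier results of these data known. From each pathway list, the genes past the threshold or else the 3 with the smallest p were named, from each marker list up to 2 abundant genes, and the 8 protein-coding genes outside the members furthest above the other libraries in K823R replicate 2; other named genes are marked as chosen after their values were seen, or serve as checks. Members were searched for copies among GENCODE M21 transcripts with BLAST 2.17.0 (identity of 95% or more over 90% or more of the length), and coordinates of genes are from that annotation. Promoter sequences are from RefSeq, GRCm38.p6. Alternatives were a pseudocount of 0.1 TPM, no filter, a filter at 5 TPM, 2 scalings, a replicate block and leaving out each library. Same-numbered libraries did not deviate together over genes (correlation 0.05). This value cannot settle whether the numbers pair the libraries, and the main fit used no pairing. Some genes of the lists are not reported here by name.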

Additional observations from a re-analysis of the deposited data

How the results depend on the processing

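With 2 libraries a group, limma had 2 residual degrees of freedom. It called 1 of all genes tested in the analysis as reported, 0 without a filter (1210 at an unadjusted p under 0.05), 2 among genes averaging 5 TPM or more (546), and 0 without each library in turn (574 to 1111). The correlation of same-numbered libraries (0.05) cannot settle whether the replicate numbers pair the samples. With the replicate number as a block, limma called 0 genes (916 at an unadjusted p under 0.05). The median log2 difference of the members, 0.30, ranged from 0.081 (without K823R replicate 2) to 0.50 (without K823R replicate 1), and was 0.43 with a pseudocount of 0.1 TPM and 0.29 under either scaling. The number of members higher in K823R ranged from 23 to 31 when 1 library was left out, beside 49.3% to 60.2% of all genes. Of the 18 members averaging 5 TPM or more, 16 were higher in K823R, beside 57.6% of such genes. Of the same 18, 15 were highest in K823R replicate 2, beside 17.7% of such genes. Oas2 is among the 18 through WT replicate 2 alone. No pathway list had a called gene in any alternative run. The 12 pathway genes named for their p kept direction and stayed uncalled in all 118 alternatives (limma adjusted p 0.656 to 1).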

Other observations

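Genes of antigen presentation, which interferons also induce, were looked at after the levels of the members had been seen, and they are given as values only. B2m, the light chain of MHC class I, had 533 and 943 TPM in K823R ganglia and 527 and 532 TPM in WT ganglia. H2-K1, a class I heavy chain, had 160 and 291 TPM in K823R ganglia and 155 and 137 TPM in WT ganglia. Psmb8 and Psmb9, subunits of the immunoproteasome, had 30.5 and 54.9 TPM, and 4.71 and 10.5 TPM, in K823R ganglia, and 29.2 and 27.1 TPM, and 4.96 and 5.28 TPM, in WT ganglia. Tap1, the peptide transporter, had 5.32 and 11.6 TPM in K823R ganglia and 6.46 and 6.14 TPM in WT ganglia. In these 5 genes K823R replicate 2 was the highest library and K823R replicate 1 was near the WT libraries. The class II chain H2-Aa, at 46.1 and 74.6 TPM in K823R ganglia and 25.4 and 48.4 TPM in WT ganglia, was also highest in K823R replicate 2. Ciita, the activator of class II genes, had 0.70 and 0.73 TPM in K823R ganglia and 0.29 and 0.52 TPM in WT ganglia.

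The 8 protein-coding genes furthest above the other libraries in K823R replicate 2 were ranked with the members left out. None was an interferon-stimulated gene of the lists used. Mogat1, an enzyme of triglyceride synthesis, had 0.73 and 47.5 TPM in K823R ganglia and 0.48 and 0.37 TPM in WT ganglia. Adamts12, a secreted protease, had 0.19 and 18.3 TPM in K823R ganglia and 0.08 and 0.15 TPM in WT ganglia. Arntl2, a clock transcription factor, had 11.8 and 57.0 TPM in K823R ganglia and 1.09 and 1.67 TPM in WT ganglia, and Skida1 had 4.57 and 20.5 TPM in K823R ganglia and 4.69 and 4.67 TPM in WT ganglia. The other 4 of the 8 genes (Zfp972, Shisa6, Gm14327 and Kcnq1) had 5.13 to 48.1 TPM in K823R replicate 2. Mogat1, Adamts12 and Kcnq1 were under 1 TPM in every other library, and Shisa6 was at most 1.09 TPM there. For these genes, K823R replicate 2 alone carried the mean past the filter of 1 TPM.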
